A study of Mus with 4 samples.

Results

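The genes described here encode chains of the receptors for interleukin (IL) 12, IL-18, IL-33, IL-27, interferon-gamma and type I interferon. They are Il12rb1, Il12rb2, Il18r1, Il18rap, Il1rl1, Il27ra, Ifngr1, Ifngr2, Ifnar1 and Ifnar2, chosen as receptor chains. Earlier results of these data were known when they were chosen. Each was read from the array row that the platform annotation pairs with that gene alone. Of the 10 genes, 9 had such a row and all 9 passed the filter on level, against 16245 of the 30142 genes in all. Il1rl1, the IL-33 receptor chain, had no such row and is not analysed here.

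Liver natural killer (NK) cells lacking the DX5 antigen were sorted from wild-type (WT) and dnTGFbRII mice, and total RNA was hybridised to 4 Affymetrix arrays, 2 for each genotype. All mice were female, on the C57BL/6 strain and 6 to 8 weeks old, and the labels record no treatment. dnTGFbRII denotes a dominant-negative TGF-beta receptor II, and the design asks how liver-resident NK cells change in an inflamed liver. In the line commonly used under this name a CD4 promoter directs the transgene to T cells, but the labels do not name the promoter. Nor do they say whether both arrays of a genotype hold RNA of different mice, 1 mouse or pools. The p-values therefore reflect the spread among these 4 samples alone, and that spread may be technical.

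IL-12 and IL-18 are released by myeloid and other cells and act together on NK cells and type 1 innate lymphoid cells, where they are strong inducers of interferon-gamma. The IL-12 receptor pairs the chains encoded by Il12rb1 and Il12rb2 and signals through the kinases JAK2 and TYK2 to STAT4. The IL-18 receptor pairs the binding chain of Il18r1 with the accessory chain of Il18rap and signals through MyD88 and IRAK kinases. Type I interferons signal through IFNAR1 and IFNAR2, and interferon-gamma through IFNGR1 and IFNGR2, both by way of Janus kinases.

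The median log2 expression of an array was 4.20 to 4.26, and the precision of every value is limited by having 2 arrays a genotype. By summed level, dendritic cell markers were highest on WT replicate 1 and lowest on dnTGFbRII replicate 1. The log2 sums were 17.29 and 16.62 in WT and 15.73 and 16.40 in dnTGFbRII cells. Clec9a, a receptor of cross-presenting dendritic cells, measured 9.83 and 6.71 on WT replicates 1 and 2 and 4.77 and 4.82 on the dnTGFbRII replicates. The receptor chains are therefore also given without WT replicate 1 where that array moved a value. In bulk RNA of this kind, fewer cells of a type and less RNA per cell cannot be told apart.

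Both IL-18 receptor chains were higher in dnTGFbRII than in WT cells, by 1.44-fold for Il18r1 and 1.46-fold for Il18rap, while the IL-12 receptor chain Il12rb2 was slightly lower. For these 3 chains the arrays did not overlap between genotypes, and for the other 6 they did. Among all genes tested, 27.2% did not overlap (12.6% higher and 14.5% lower in dnTGFbRII cells), so the members' 3 of 9 lies near the background. None of the 9 passed an adjusted p of 0.05 in limma, as none of the 16245 genes did (0.0%), and the lowest adjusted p of a member was 0.9998. At an unadjusted p under 0.05, limma called 2 of 9 members, Il18r1 and Il18rap, both higher, against 3.23% of all genes in either direction and 1.95% on the higher side. The median difference of the 9 was 0.03 on the log2 scale, with 5 positive and 4 negative, beside -0.01 over all genes tested.

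**Figure D1:**
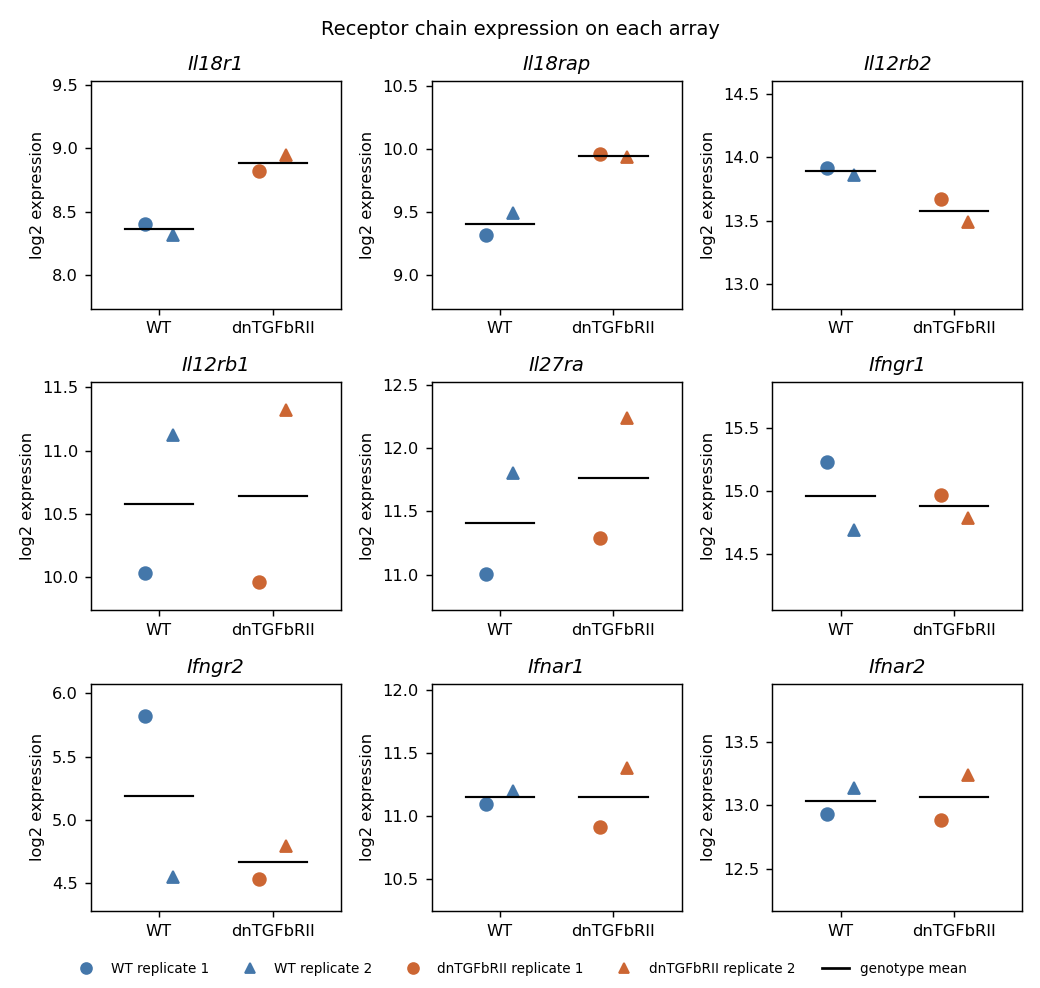
Log2 expression of the 9 measured receptor chains on each of the 4 arrays (circles, replicate 1; triangles, replicate 2; lines, genotype means), with panels of equal height in log2 units. The arrays of the genotypes are separate for Il18r1, Il18rap and Il12rb2, whereas Il12rb1 and Il27ra differ more between the arrays of a genotype than between genotypes.

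The count of 2 depended on single arrays. It was 0 without WT replicate 1, where the differences were 0.56 for Il18r1 (unadjusted p = 0.0544 in limma) and 0.46 for Il18rap (0.0913), and 1 without dnTGFbRII replicate 2, where Il18r1 missed the threshold (unadjusted p = 0.0545 in limma). Without WT replicate 2 it was again 2, but with Ifngr2 (0.00567) in place of Il18r1 (0.0843). Il18r1 thus kept an unadjusted p under 0.05 only without dnTGFbRII replicate 1 (0.0239). When an array is left out its genotype keeps 1 array, so these p-values reflect no spread within that genotype. The same holds wherever 1 array is left out below. With 2 arrays on each side, the smallest 2-sided p that an exact permutation test allows is 0.333.

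Il18r1 encodes the chain that binds IL-18. It measured 8.40 and 8.32 on WT replicates 1 and 2 and 8.82 and 8.95 on dnTGFbRII replicates 1 and 2 (log2 expression). Both dnTGFbRII arrays lay above both WT arrays, and the gap between genotypes was wider than the spread within either. The difference was 0.52 ± 0.13 on the log2 scale (standard error of the limma fit; 95% interval 0.18 to 0.86), or 1.44-fold with an interval of 1.14 to 1.82 (unadjusted p = 0.0115, adjusted p = 0.9998, limma). When 1 array was left out in turn the difference stayed between 0.46 and 0.59.

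Il18rap encodes the accessory chain that completes the signalling receptor. It measured 9.32 and 9.49 on WT replicates 1 and 2 and 9.96 and 9.94 on dnTGFbRII replicates 1 and 2. The dnTGFbRII arrays were nearly equal and both above WT. The difference was 0.54 ± 0.13 (95% interval 0.20 to 0.89), or 1.46-fold with an interval of 1.14 to 1.86 (unadjusted p = 0.0111, adjusted p = 0.9998, limma). It ranged from 0.46 to 0.63 with 1 array left out, and its unadjusted p in limma missed 0.05 only without WT replicate 1.

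The profile of Il18rap over the 4 arrays, centred on its own mean, was set beside those of 10280 annotated protein-coding genes. The nearest were Sit1, a transmembrane adaptor of lymphocytes, at a Euclidean distance of 0.08 log2 units, Mlkl, the effector of necroptosis, at 0.08, and Olfr1393, an olfactory receptor gene, also at 0.08. All 4 values of Olfr1393 lie under the highest antigenomic control row of their array (such rows match no mouse sequence). Il18r1 ranked 42 at 0.21. Over 4 arrays such nearness describes only a shared step between the genotypes.

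Other components of the IL-18 receptor pathway showed smaller gaps or none. Irak2, a kinase-like adaptor below MyD88, measured 12.32 and 11.99 in WT and 12.69 and 12.49 in dnTGFbRII cells, higher without overlap by 0.43 ± 0.17. Myd88 itself measured 10.57 and 10.92 against 10.52 and 11.19 and overlapped. Sigirr, an inhibitory receptor of the same family, overlapped too, with a difference of 0.10 ± 0.29, as did Il18bp, the soluble IL-18 binding protein, at -0.08 ± 0.16. Il1rap, the accessory chain that IL-33 and IL-1 receptors use, lay between 4.95 and 4.99 on all 4 arrays. Irak1, Irak4 and Nfkb1 had no row of their own and are not analysed here.

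**Figure D2:**
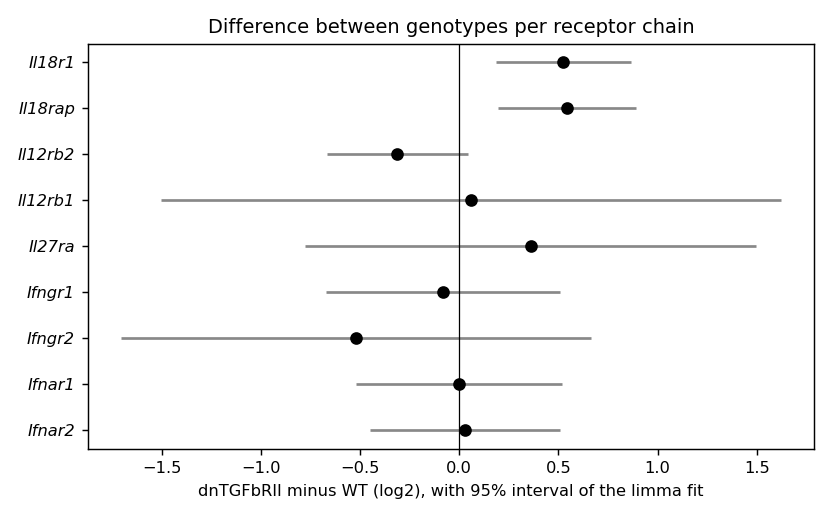
Difference dnTGFbRII minus WT in log2 units for each of the 9 receptor chains (points) with the 95% interval of the limma fit (lines). The intervals of Il18r1 (0.18 to 0.86) and Il18rap (0.20 to 0.89) lie above 0, and those of the other 7 chains include 0.

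Il12rb2 encodes the inducible chain of the IL-12 receptor, the one that recruits STAT4. It measured 13.92 and 13.86 on WT replicates 1 and 2 and 13.67 and 13.49 on dnTGFbRII replicates 1 and 2. Both dnTGFbRII arrays were below both WT arrays, by a small margin. The difference was -0.31 ± 0.13 (95% interval -0.67 to 0.04), a level in WT 1.24-fold that in dnTGFbRII cells, with an unadjusted p of 0.0718 in limma and an adjusted p of 0.9998. It ranged from -0.40 to -0.22 with 1 array left out.

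Il12rb1 encodes the chain shared by the IL-12 and IL-23 receptors. It measured 10.03 and 11.13 on WT replicates 1 and 2 and 9.96 and 11.32 on dnTGFbRII replicates 1 and 2. Replicate 2 of each genotype was more than 1 log2 unit above replicate 1, a step of 1.09 in WT and 1.36 in dnTGFbRII cells, and the genotypes overlapped. The difference of 0.06 ± 0.59 has a 95% interval of 0.353-fold to 3.08-fold, in which the step between replicates counts as error. Between arrays of the same replicate number the difference was -0.07 and 0.19. A fit with that number as a block gave a standard error of 0.11. The sign of the difference turned without WT replicate 1 (-0.49) and without dnTGFbRII replicate 2 (-0.62).

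Il23r, which completes the IL-23 receptor and lies next to Il12rb2 in the mouse reference, measured between 3.62 and 3.76, below the filter of 4.217 that a gene had to pass to be tested. Of the kinases and transcription factor of the IL-12 receptor, Jak2 differed by -0.19 ± 0.20 and Tyk2 by 0.01 ± 0.38, both overlapping. Tyk2, like Il12rb1, was higher on replicate 2 of each genotype, by 0.74 in WT and 0.79 in dnTGFbRII cells. Stat4 measured 14.75 and 14.79 in WT and 14.88 and 14.94 in dnTGFbRII cells, a difference of 0.14 ± 0.12 without overlap.

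Il27ra encodes the specific chain of the IL-27 receptor, which signals together with the gp130 chain of Il6st. It measured 11.00 and 11.81 on WT replicates 1 and 2 and 11.29 and 12.24 on dnTGFbRII replicates 1 and 2. As with Il12rb1, replicate 2 was the higher array of each genotype, by 0.80 in WT and 0.95 in dnTGFbRII cells. The difference was 0.36 ± 0.43 (95% interval 0.584-fold to 2.82-fold; unadjusted p = 0.444, adjusted p = 0.9998, limma), within the spread between arrays, and its sign turned without WT replicate 1 (-0.04) or dnTGFbRII replicate 2 (-0.11). Between arrays of the same replicate number the Il27ra difference was 0.29 and 0.43, and the fit with that number as a block is given below. Il6st measured 8.01 and 7.02 in WT and 7.11 and 7.26 in dnTGFbRII cells, highest on WT replicate 1 and overlapping otherwise.

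**Figure D3:**
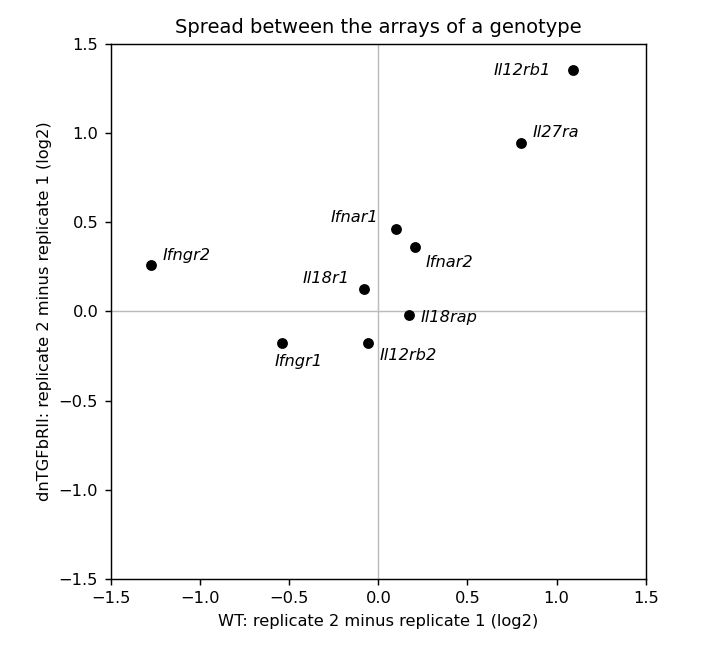
For each receptor chain, the step from replicate 1 to replicate 2 in WT (horizontal axis) and in dnTGFbRII cells (vertical axis), in log2 units. Il12rb1 and Il27ra have large steps of the same sign in both genotypes, Ifngr2 a step of -1.27 in WT and 0.26 in dnTGFbRII cells, and the chains Il18r1, Il18rap and Il12rb2 lie near 0 on both axes.

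Replicate 2 was above replicate 1 in both genotypes for 4 of the 9 chains, Il12rb1, Il27ra, Ifnar1 and Ifnar2, and below it in both for Ifngr1 and Il12rb2. Over all genes tested, 33.7% had replicate 2 above replicate 1 in both genotypes. The labels do not say what the replicate number marks.

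The interferon receptor chains did not differ between genotypes beyond their spread. Ifngr1, the ligand-binding chain for interferon-gamma, measured 15.23 and 14.69 on WT replicates 1 and 2 and 14.97 and 14.79 on dnTGFbRII replicates 1 and 2. Both dnTGFbRII values lay between the WT values. The difference was -0.08 ± 0.22, with an interval of -0.67 to 0.51 (0.628-fold to 1.42-fold), and its sign turned without WT replicate 1 (0.19) and without dnTGFbRII replicate 2 (0.01).

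Ifngr2, the signalling chain of the same receptor, was low on all arrays but WT replicate 1. It measured 5.82 and 4.55 on WT replicates 1 and 2 and 4.53 and 4.79 on dnTGFbRII replicates 1 and 2. The antigenomic control rows of the array, which match no mouse sequence and vary with base composition, reached up to 5.33, 5.85, 5.58 and 6.21 on the same 4 arrays, so only the value on WT replicate 1 exceeded every control row of its array. The difference of -0.52 ± 0.45 (95% interval -1.71 to 0.66, adjusted p = 0.9998, limma) became 0.11 without WT replicate 1 and -1.16 without WT replicate 2. The last value sets WT replicate 1 alone against the dnTGFbRII arrays.

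Dendritic cell markers in sum, like Ifngr2, were highest on WT replicate 1. All 11 tested of 13 listed were lower in dnTGFbRII cells, 7 without overlap (against 14.5% of all genes), and 6 had an unadjusted p under 0.05 in limma (against 1.29% on the lower side). The median difference was -1.30, and their summed level was 17.29 and 16.62 in WT and 15.73 and 16.40 in dnTGFbRII cells (log2 of the sum). Flt3, a receptor of dendritic cell precursors, measured 7.20 on WT replicate 1, 5.14 on WT replicate 2, and 3.92 and 3.88 in dnTGFbRII cells. The dnTGFbRII values are under the filter, which Flt3 passed through the WT arrays. Xcr1, a chemokine receptor of cross-presenting dendritic cells, was below the filter. Il1r2, the decoy receptor for IL-1, followed the same order at 10.46 and 7.33 in WT and 5.33 and 4.98 in dnTGFbRII cells (difference -3.74 ± 1.05, unadjusted p = 0.019, limma). Without WT replicate 1 the difference was -2.18. With WT replicate 1 as the only WT array it was -5.31. Over all 4 arrays the adjusted p of Il1r2 was 0.9998 in limma. The part of dendritic cells in the Ifngr2 and Il1r2 values was not tested.

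**Figure D4:**
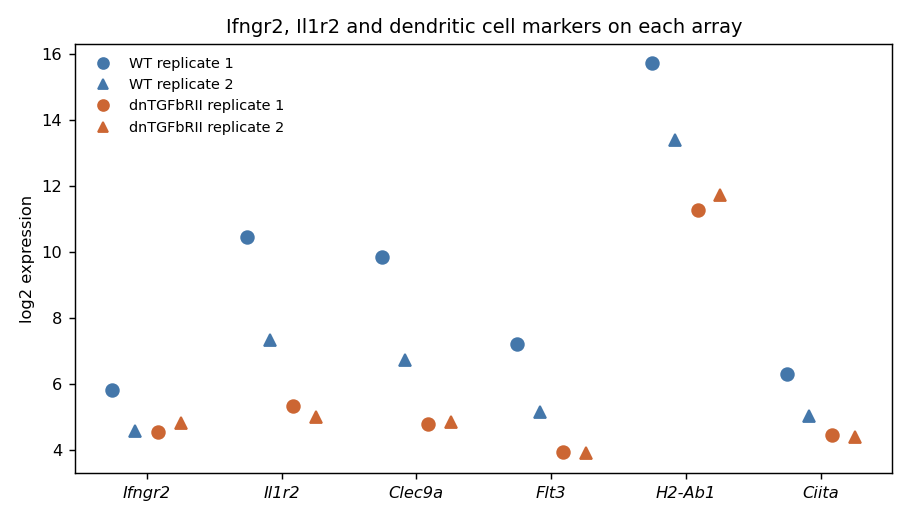
Log2 expression of Ifngr2, Il1r2 and 4 genes of the dendritic cell list (Clec9a, Flt3, H2-Ab1 and Ciita) on each array (blue, WT; orange, dnTGFbRII; circles, replicate 1; triangles, replicate 2). WT replicate 1 is the highest array for each gene, with Ifngr2 at 5.82 and Clec9a at 9.83, and levels of different genes are not comparable.

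Ifnar1, a chain of the type I interferon receptor, measured 11.10 and 11.20 on WT replicates 1 and 2 and 10.92 and 11.38 on dnTGFbRII replicates 1 and 2. The dnTGFbRII arrays lay on either side of WT, and the means of both genotypes were 11.15. The interval of the difference was -0.52 to 0.52 (0.698-fold to 1.43-fold).

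Ifnar2, the partner chain with the higher affinity for interferon, measured 12.93 and 13.14 in WT and 12.88 and 13.24 in dnTGFbRII cells. The difference was 0.03 ± 0.18 (95% interval -0.45 to 0.51), again with the dnTGFbRII arrays on either side of WT. Il10rb, a receptor chain for IL-10 family cytokines and type III interferons, followed the same order of arrays, from 11.79 on dnTGFbRII replicate 1 to 12.29 on dnTGFbRII replicate 2, with WT between. Ifnlr1, the specific chain of the type III interferon receptor, lay between 3.38 and 3.50, below the filter. Jak1, the kinase common to these receptors, measured between 15.04 and 15.19 on all 4 arrays.

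Most ligands of these receptors were not above the filter in the sorted cells. Il12a, Il12b, Il18, Il33, Il27, Ebi3, Ifnb1 and Il1a, 8 of the 11 listed, were below it. Ifng measured 13.74 and 14.22 in WT and 13.66 and 14.14 in dnTGFbRII cells, a difference of -0.08 ± 0.25 within the spread between arrays. Il1b spread widely, with 8.74 and 6.45 in WT and 6.70 and 7.87 in dnTGFbRII cells. Il23a, a subunit of IL-23, lay between 4.46 and 4.53, above the filter but under the highest antigenomic control row of each array.

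The related receptor chains, 9 tested of 12, held 3 positive (against 47.4% of all genes) and 6 negative differences with a median of -0.08. Il1r2 was the 1 gene at an unadjusted p under 0.05 in limma (against 3.23% of all genes). Il6ra, the IL-6 receptor chain, overlapped (-0.66 ± 0.50, and -0.02 without WT replicate 1). Il10ra, the IL-10 receptor chain, overlapped too (0.38 ± 0.29), at 0.01 without dnTGFbRII replicate 2 and 0.75 without dnTGFbRII replicate 1. Il1rl2, the IL-36 receptor, was higher by 0.19 ± 0.13 without overlap. All 4 values of Il1rl2 lie under the highest antigenomic control row of their array.

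Of the signal transducers, 14 tested of 18, 10 differences were positive (against 47.4% of all genes), with a median of 0.05. At an unadjusted p under 0.05 in limma there was 1 (against 3.23% of all genes), Stat3, which carries IL-27 and IL-6 family signals. Stat3 measured 13.28 and 13.04 in WT and 13.89 and 13.53 in dnTGFbRII cells (0.55 ± 0.19, unadjusted p = 0.0358, adjusted p = 0.9998, limma). Both dnTGFbRII arrays were above both WT arrays, and the unadjusted p stayed under 0.05 only without dnTGFbRII replicate 2 (0.0152) when 1 array was left out. Irf9, the DNA-binding partner of STAT2, was higher without overlap by 0.37 ± 0.17, while Stat2 overlapped (0.31 ± 0.33).

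Negative regulators, 11 tested of 12, went both ways, with 5 positive and 6 negative differences and a median of -0.03. Usp18, which binds IFNAR2 and limits its signal, measured 6.52 and 6.43 in WT and 6.76 and 7.16 in dnTGFbRII cells (0.49 ± 0.18, unadjusted p = 0.0486, limma). That p missed 0.05 with arrays centred on their median (0.0666), a stricter filter (0.0597), repeated quantile normalization (0.058) and a trended prior (0.0507), and the difference was 0.28 without dnTGFbRII replicate 2. Socs2, a suppressor of cytokine signalling, measured 7.01 ± 0.01 in WT (SD over its 2 arrays) and 6.70 and 6.59 in dnTGFbRII cells (-0.36 ± 0.12, unadjusted p = 0.0379, limma), and its p missed 0.05 with a stricter filter (0.0589) and with any 1 array left out. Ptpn6, which encodes the phosphatase SHP-1, was lower without overlap (-0.40 ± 0.18), and Irak3, an inhibitor of IRAK signalling, overlapped (0.33 ± 0.20). None of the genes in these lists passed the adjusted threshold.

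Genes that IL-12 and IL-18 induce in NK cells were more often higher than lower in dnTGFbRII cells. Of 18 tested, 13 differences were positive (against 47.4% of all genes) and the median was 0.18, with 4 genes higher and 3 lower without overlap (against 12.6% and 14.5%). Il2ra, the IL-2 receptor alpha chain, was the 1 gene at an unadjusted p under 0.05 in limma (against 3.23% of all genes). It measured 7.06 and 7.20 in WT and 7.94 and 8.23 in dnTGFbRII cells (0.96 ± 0.16, unadjusted p = 0.00254, limma). It also stands in the regulatory T cell list. Cd69, an early activation antigen, was lower without overlap (15.96 and 15.80 against 14.78 and 15.62; -0.68 ± 0.31, unadjusted p = 0.0826, limma). This difference was -0.26 without dnTGFbRII replicate 1 and -1.10 without dnTGFbRII replicate 2. Lower without overlap, too, was the chemokine Ccl3 (-0.24 ± 0.12). Il10 was higher by 0.30 ± 0.15 near the filter, which it passed through the dnTGFbRII arrays.

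Targets of type I interferon were mostly higher in dnTGFbRII cells. Of 23 tested, 20 differences were positive (against 47.4% of all genes) with a median of 0.45. Without overlap 13 were higher and 1 lower (against 12.6% and 14.5%). At an unadjusted p under 0.05 in limma 7 were higher and 0 lower (against 1.95% and 1.29%). Oas1a, an antiviral sensor of double-stranded RNA, measured 7.92 and 7.94 in WT and 9.16 and 9.51 in dnTGFbRII cells. Ifit1 measured 6.57 and 6.50 against 8.96 and 8.09, and Oasl1 6.65 and 6.96 against 8.89 and 8.37. Mx1, an antiviral GTPase, measured 5.92 and 5.95 against 6.54 and 6.59. These 4 genes were named for the largest test statistics of the list, so the separation of their arrays reflects that choice. The 3 negative differences were those of Isg20 (-0.08, without overlap), Oas2 (-0.09) and Bst2 (-0.19), the last 2 overlapping.

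Of 16 tested targets of interferon-gamma, 12 differences were positive (against 47.4% of all genes), with a median of 0.17. There were 6 higher and 1 lower without overlap (against 12.6% and 14.5%), and 3 higher and 1 lower at an unadjusted p under 0.05 in limma (against 1.95% and 1.29%). Cxcl10, a chemokine induced by both kinds of interferon, measured 5.74 and 5.58 in WT and 7.69 and 6.81 in dnTGFbRII cells. Gbp3, a guanylate-binding protein gene, measured 8.30 and 8.14 against 9.07 and 8.78. Iigp1, an immunity-related GTPase, measured 4.11 and 3.89 against 4.70 and 4.35. It passed the filter through the dnTGFbRII arrays, and all 4 values lie under the highest antigenomic control row of their array. Ciita, the class II transactivator, went the other way (6.30 and 5.03 against 4.43 and 4.37; -1.27 ± 0.44, and -0.63 without WT replicate 1), as the dendritic cell list that holds it did. Whether the shifts of the target lists differ from each other was not tested.

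**Figure D5:**
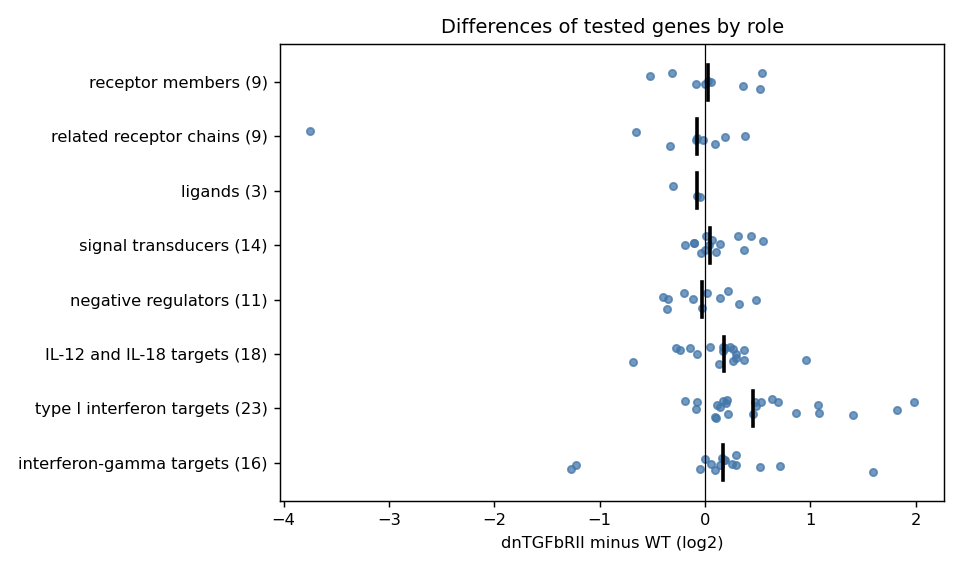
Differences dnTGFbRII minus WT (log2) of the tested genes of each role, 1 point per gene, with the list median as a bar and the number tested in parentheses. The receptor chains have a median of 0.03 and the type I interferon targets 0.45, and Il1r2 lies at the far left at -3.74.

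The label of the sort was set against cell type markers. All 12 NK cell markers passed the filter, Ncr1 among them at 16.99 and 17.17 in WT and 16.87 and 17.19 in dnTGFbRII cells. Of the 12, 0 had an unadjusted p under 0.05 in limma (against 3.23% of all genes). There were 4 positive and 8 negative differences, with 0 higher and 2 lower without overlap (against 12.6% and 14.5%). Itga2, which encodes the DX5 antigen, measured 8.32 and 8.56 in WT and 9.06 and 8.83 in dnTGFbRII cells. Circulating NK cell markers were mostly higher in dnTGFbRII cells, with 7 of 9 tested differences positive (against 47.4% of all genes) and a median of 0.51. S1pr5, among the 7, passed the filter through the dnTGFbRII arrays (3.84 and 4.27 in WT, 4.66 and 4.48 in dnTGFbRII cells). At an unadjusted p under 0.05 in limma 4 markers were higher (against 1.95% of all genes) and Klra9 was lower (against 1.29%). Eomes (6.93-fold), Ly6c2 (a log2 difference of 2.68) and Klra7 (6.18-fold) were among the 4. The summed level, to which Klra9 contributes more than any other marker on each array, was 14.41 and 14.23 in WT and 14.59 and 13.97 in dnTGFbRII cells. T cell markers were mostly higher as well, with 7 of 8 tested positive (against 47.4% of all genes) and a median of 0.71. At an unadjusted p under 0.05 in limma 6 of the 8 were higher (against 1.95% of all genes), and Cd3g was lower. The 6 include Cd3e (6.88-fold), Cd3d (4.37-fold) and Cd40lg. Cd40lg measured 4.05 and 3.88 in WT and 4.56 and 4.66 in dnTGFbRII cells. It passed the filter through the dnTGFbRII arrays, and all 4 values lie under the highest antigenomic control row of their array. So do those of Cd5, another of the 6 (4.53 and 4.57 in WT, 5.17 and 4.90 in dnTGFbRII cells). The summed level of the T cell markers, most of it from Cd3g, was 15.99 and 15.86 in WT and 15.94 and 15.67 in dnTGFbRII cells. Cd6 and Cd8b1 were below the filter. All 4 tested of 7 listed regulatory T cell markers were positive (against 47.4% of all genes), with a median of 1.09. Foxp3 had no row of its own, and Lrrc32 (-0.22) and Gpr83 (-0.04) were below the filter. The summed level of the regulatory T cell markers was 13.23 and 13.20 in WT and 13.43 and 13.55 in dnTGFbRII cells. The part of these cells in the Il18r1, Il18rap, Il2ra and interferon target values was not tested.

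Resident NK cell markers had 3 positive and 7 negative differences (median -0.13). Without overlap 2 were higher and 3 lower (against 12.6% and 14.5% of all genes). The 2 at an unadjusted p under 0.05 in limma were both higher, Il7r (2.47-fold) and Itgb3 (1.58-fold), against 1.95% of all genes on that side. Of the type 2 innate lymphoid cell markers Il17rb, Il13, Il5 and Hlf were below the filter, and of the basophil and mast cell markers 6 of 8 were. Kit was the 1 tested marker of type 3 innate lymphoid cells and was higher, at 8.05 and 7.34 in WT and 9.62 and 9.75 in dnTGFbRII cells, with Il22 and Il17a below the filter. The median difference was 0.19 for macrophage and monocyte markers (8 tested of 12), 0.38 for neutrophil markers (5 of 10), 0.05 for B cell markers (3 of 8) and -0.53 for hepatocyte markers (2 of 8). Of 6 endothelial markers, Pecam1 alone was tested (0.25 ± 0.25).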

How the data were processed

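The deposited table holds log2 expression values made by the authors with RMA and the Affymetrix Expression Console, per the submitters' processing notes. The sources used here name no version, summary level or build. RMA equalises the arrays' distributions, so a shift common to most genes would not show. Of 72688 rows, 30604 name exactly 1 gene in the platform annotation, and 30294 of these matched a mouse reference gene table (GRCm38.p6, used for names and gene order only). Each gene was represented by its row of highest mean level. A gene was tested when this mean exceeded 4.217, the median over every row of the table. No detection call was used, and sequences are not shown because the tables used here hold none.

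Genotypes, taken from the sample titles, were compared by limma (version 3.58.1, under R 4.3.3) with lmFit and eBayes, 2-sided, with 2 residual and 2.54 prior degrees of freedom. Benjamini-Hochberg adjustment ran over the 16245 tested genes. Differences carry the fit's standard error after ±. Alternatives were other filters, repeated quantile normalization, median centring, averaged rows, a trended robust prior, the replicate number as a block, and each array left out. The members and lists were chosen with earlier results of these data known. All members are named, with up to 4 genes of each pathway list by test statistic, direct partners of the members, and the 3 genes nearest in profile to the member with the largest statistic. Other named genes were chosen after their values were seen. In simulated arrays for this comparison (16245 genes, 10 runs), limma at an unadjusted p under 0.05 recovered 72% of genes changed by 0.5 and at an adjusted p of 0.05 0%. The simulated errors were independent between arrays, whereas deviations of same-numbered arrays correlated in the data (r = 0.5105). The variances were the estimates from 2 arrays a genotype, taken as true and shuffled among genes. These shares are therefore averages over genes, not specific to the receptor chains, and may not hold for these arrays.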

Additional observations from a re-analysis of the deposited data

How the results depend on the processing

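Il18r1, Il18rap and Il12rb2 kept their direction under every alternative run, and 0 of 98 values of the 9 members passed an adjusted p of 0.05 in limma (lowest 0.456). The sign turned in 12 of those 98 values. With 1 array left out the differences ranged from -0.62 to 0.74 for Il12rb1, -0.11 to 0.83 for Il27ra, -0.35 to 0.19 for Ifngr1, -1.16 to 0.11 for Ifngr2, -0.23 to 0.23 for Ifnar1, -0.15 to 0.21 for Ifnar2, -0.32 to 0.17 for Ifng and -1.45 to 0.84 for Il1b. Ifnar1 also turned to 0.0010 after repeated quantile normalization. Over all genes, leaving out 1 array gave 0 to 6 past the adjusted threshold (6 without WT replicate 2), 293 (without WT replicate 1) to 960 (without dnTGFbRII replicate 2) at an unadjusted p under 0.05 and 9085 to 11393 without overlap, the last because fewer arrays overlap less often. For the members these counts were 0 to 2 at an unadjusted p under 0.05 and 4 to 7 without overlap. A filter at the 75th percentile gave 184 genes at an unadjusted p under 0.05 and 2137 without overlap, and no filter gave 1259 and 9386, since fewer or more genes were tested. With a block for the replicate number, 1467 genes and 4 members (Il18r1, Il18rap, Il27ra and Il12rb2) had an unadjusted p under 0.05 (Il27ra 0.0218, against 0.444 without the block), with 0 past the adjusted threshold. Deviations of same-numbered arrays correlated (r = 0.5105), but 2 pairs cannot show that the numbers pair the samples, and the cause was not tested.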

Other observations

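In the mouse reference order, Il18r1 and Il18rap are neighbours, with Il1rl1 on one side and Slc9a4 on the other. Slc9a4 lay between 3.29 and 3.38 and Il1r1, 3 genes from Il18r1, between 3.37 and 3.54 on the 4 arrays, below the filter. Ifnar2, Il10rb, Ifnar1 and Ifngr2 are also consecutive genes. Tmem50b, which follows Ifngr2, measured 10.33 and 9.13 on WT replicates 1 and 2 and 9.11 and 9.01 on the dnTGFbRII replicates, so WT replicate 1 was the highest array for both neighbours. These genes were chosen after their values were seen.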
